A study of Mus musculus with 8 samples.

Results

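The baseline transcriptome of the mouse esophagus was described from the 4 wild type libraries of a series of 8. The libraries were chosen by their titles alone, with no measured value. All 4 came from whole esophagus of male C57BL/6J mice aged 8 weeks, which were littermates of the transgenic animals of the series and carried no transgene by their label. The other 4 libraries, from EoE33 mice that overexpress IL-33 in the esophagus, were not used. PolyA RNA was sequenced as read pairs on an Illumina HiSeq instrument. No label says which stretch of the esophagus was sampled or how neighbouring tissue was trimmed, and the spread over the 4 libraries may hold technical as well as animal differences. With 1 group there is no comparison of conditions, so levels and their spread are given with no test.

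The mouse esophagus is a tube lined by a stratified squamous epithelium whose dividing basal cells move outward, switch keratins and end as a cornified surface. Beneath it lie connective tissue with vessels and nerves, a smooth muscle layer of the mucosa, and an outer coat that in mice is largely striated muscle with a nerve plexus between its layers. RNA of whole tissue mixes all of these, and in such bulk samples fewer cells of a type and less RNA per cell cannot be told apart.

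Depth was alike, with 22183337 to 24070822 counts per library. Levels are given on either of 2 scales. CPM, the counts scaled to a common total with TMM library sizes, serve to compare a gene between libraries, and TPM, in which counts are first divided by the exon length of the gene, serve to compare genes. Every pair of libraries differed by more than counting noise. Where 1 would be pure noise, the chi-square of the counts divided by its degrees of freedom was 10.4 for replicates 1 and 2, the closest pair, and 53.8 for replicates 3 and 4, the farthest. Some libraries were high in genes known from neighbouring organs. In replicate 3, 10 airway secretory and ciliated cell genes summed to 3803 TPM against 42.6 to 46.9 TPM in the other 3, and 8 heart muscle genes to 353 TPM against 30.8 to 41.5 TPM. In replicate 1, 10 liver genes summed to 395 TPM against 12.1 to 33.6 TPM in the other 3. These sets were formed after their values were seen, and the full lists of these tissues differed less. In replicates 1 to 4 the airway list summed to 955, 986, 4917 and 816 TPM. The heart list summed to 1943, 2275, 2775 and 2153 TPM and the hepatocyte list to 1095, 267, 237 and 699 TPM. List sums that rest on these libraries are given by library or without them.

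The 2 layers with the most RNA were the epithelium and the muscle, and the stretch just before the start of their highest genes is shown because these genes set much of the profile described here. Sequences are RefSeq's (GRCm38.p6), 100 bases up to the base before the annotated start, 5′ to 3′ on the strand of the gene. They are those of the 3 genes with the highest TPM in each layer that have a single entry in the table used, which passed over Krt13, Krt4 and Tnnt3. Capitals mark the letters TATAAA, searched on the strand of the gene. The epithelial genes were Lor (chr3:92083143-92083242, minus strand), which encodes the envelope protein loricrin, Krtdap (chr7:30787805-30787904, plus strand), a keratinocyte differentiation gene, and Asprv1 (chr6:86628074-86628173, plus strand), a protease that processes profilaggrin. The muscle genes were Acta1 (chr8:123894776-123894875, minus strand), the skeletal muscle actin, Ckm (chr7:19410994-19411093, plus strand), the muscle creatine kinase, and Mylpf (chr7:127211508-127211607, plus strand), a fast regulatory myosin light chain.
Lor: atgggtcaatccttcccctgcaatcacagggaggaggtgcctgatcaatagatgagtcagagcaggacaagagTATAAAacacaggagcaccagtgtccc
Krtdap: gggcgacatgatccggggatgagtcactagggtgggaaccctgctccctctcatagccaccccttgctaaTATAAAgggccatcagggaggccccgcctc
Asprv1: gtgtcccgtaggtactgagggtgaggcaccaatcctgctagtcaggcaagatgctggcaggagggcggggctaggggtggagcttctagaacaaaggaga
Acta1: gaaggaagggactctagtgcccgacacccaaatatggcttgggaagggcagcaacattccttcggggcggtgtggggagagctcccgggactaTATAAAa
Ckm: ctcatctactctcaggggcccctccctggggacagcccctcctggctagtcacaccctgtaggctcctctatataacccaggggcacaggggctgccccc
Mylpf: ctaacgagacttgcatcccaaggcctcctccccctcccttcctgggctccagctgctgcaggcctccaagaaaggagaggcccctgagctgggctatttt

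The match began at position -27 from the start in Lor, -30 in Krtdap and -7 in Acta1. The GENCODE start differs for both Krtdap and Acta1, and counted from there the matches began at -21 and -31. Asprv1, Ckm and Mylpf had no match in the window, which says only that these letters are not in it. Of the 100 nuclear genes with the highest TPM, 72 had an entry, and 12 of those (16.7%) held TATAAA on their own strand, against 4.54% of all 27025 genes in the table with windows of the same length. Counting either strand, the shares were 19.4% and 6.57%. These are descriptions of letters, with no test.

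The transcriptome was concentrated in few genes. At least 1 CPM in all 4 libraries was reached by 14080 of 49315 identifiers, among them 13222 of 21811 protein-coding genes (60.6%) and 177 long intergenic RNAs, while 20584 identifiers had 0 counts in every library. The 10 highest genes of a library held 21.5% ± 1.39 of its TPM and the 100 highest 42.9% ± 1.99 (SD, n = 4). Between 163 and 247 genes made up 50% of the TPM. Of the 100 nuclear genes with the highest mean TPM, 29 were on epithelial lists, 21 on muscle lists and 15 encoded ribosomal proteins, against 3 on stromal lists and 0 on nerve or immune lists. Mitochondrial genes took 7.20% ± 0.61 and 84 ribosomal protein genes 5.55% ± 0.21 of the TPM (SD, n = 4).

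Summed over lists, the 213 epithelial genes took 22.02% ± 2.93 of the TPM, the 129 muscle genes 8.52% ± 0.65, the 101 stromal genes 1.42% ± 0.38, the 117 immune genes 0.237% ± 0.076 and the 53 nerve genes 0.053% ± 0.0067 (SD, n = 4). The lists differ in length and were drawn up by hand, so these shares describe the listed genes and not the amount of each tissue. The epithelial sum was 2.48, 2.70, 3.29 and 1.98 times the muscle sum in replicates 1 to 4. By these sums replicate 3 had the highest epithelial and the lowest muscle value, and replicate 4 the reverse. Not every list followed. The fast fibre sum was highest in replicate 2, and the barrier lipid sum was highest in replicate 1 and lowest in replicate 3. On the CPM scale 10 of 17 fast fibre genes were lowest in replicate 4 and 1 was highest there. Most barrier lipid genes did not share the order of their sum. Of 24 with a mean of 1 CPM or more, 13 were highest and 5 lowest in replicate 3 (CPM). In replicate 4, 12 were lowest and 4 highest, and 10 had the order replicate 4, 1, 2, 3 from low to high.

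By markers, too, the epithelium led. Krt13 (ENSMUSG00000044041; GRCm38 chromosome 11, 100117327 to 100121566), the suprabasal type I keratin of internal squamous epithelia, had the highest TPM of all genes, at 51305, 56281, 64438 and 41611 TPM in replicates 1 to 4. Its partner Krt4 (chromosome 15, 101918535 to 101924735), a type II keratin, came next at 46829, 51310, 58281 and 37339 TPM. Both were highest in replicate 3 and lowest in replicate 4, with a CV of 22.5% and 22.7% on the CPM scale. Krt5 (chromosome 15, 101707070 to 101712898), a keratin of basal cells, stood at 2276, 2680, 2783 and 2197 TPM, rank 40.

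Acta1 (chromosome 8, 123891769 to 123894751) had rank 5, at 21407, 20742, 18241 and 22456 TPM. On the CPM scale its libraries kept close together, with a CV of 4.81%, while its TPM values spread more. Ttn (chromosome 2, 76703980 to 76982547), the giant spring protein of the sarcomere, had rank 14 by CPM but rank 1612 by TPM, with 82.2 ± 7.76 TPM (SD, n = 4), because its exons span 116825 bases. Dcn (chromosome 10, 97479609 to 97518143), a collagen-binding proteoglycan of fibroblasts, stood at 378, 335, 371 and 507 TPM, highest in replicate 4. By these markers squamous epithelium, striated muscle and connective tissue were all present in each library.

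**Figure D1:**
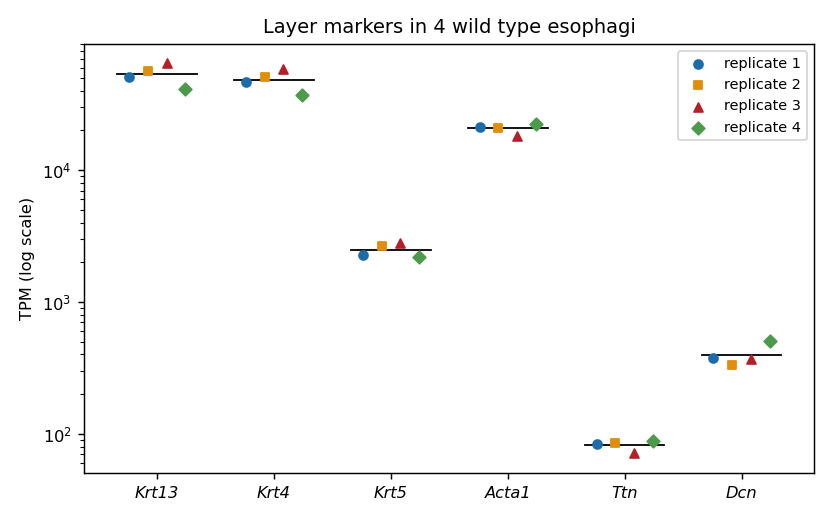
TPM on a log axis of 6 layer markers in each of the 4 wild type libraries (coloured symbols), with the mean as a bar. Krt13 and Krt4 lie above all others and spread most visibly, replicate 3 on top and replicate 4 at the bottom, while Acta1 stays between 18241 and 22456 TPM.

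Keratins were dominated by that one pair. The 53 keratin genes, from clusters on chromosomes 11 and 15, together took 10.9% ± 1.90 of the TPM (SD, n = 4), and Krt13 and Krt4 made up 93.1% of this. The ratio of Krt13 to Krt4 was 1.10, 1.10, 1.11 and 1.11 in replicates 1 to 4, a CV of 0.794%. The 2 chromosomes came to like sums, with 56884 ± 9925 TPM for the 27 genes on chromosome 11 and 52550 ± 9120 TPM for the 26 on chromosome 15 (SD, n = 4). Below the pair lay the basal keratins Krt5, Krt15 (1991 ± 265 TPM) and Krt14 (841 ± 150 TPM), and the suprabasal Krt78 (1190 ± 164 TPM; SD, n = 4 each). Krt5 exceeded Krt14, its usual partner, 2.98-fold ± 0.21 (SD, n = 4).

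The keratins listed here for other sites were low or missing. Krt6a and Krt6b, known for wounds and activated epithelium, stood at 110 ± 17.4 and 67.8 ± 26.4 TPM, but 15.8% and 18.8% of their 150-base stretches also occur in another gene, so reads between these copies are uncertain. Krt16 and Krt17 lay at 14.3 ± 4.27 and 16.7 ± 6.00 TPM (SD, n = 4 each). The list of oral, skin, hair and simple-epithelium keratins summed to 31.6, 27.2, 99.0 and 56.5 TPM over 21 genes. Its mean was 53.6 TPM, or 38.4 TPM without replicate 3, and Krt34, Krt27, Krt73 and Krt86 had 0 counts. Krt32 was not on that list and was among the 5 keratin genes of chromosome 11 with 100 TPM or more. The simple-epithelium keratins Krt8, Krt18 and Krt19 were highest in replicate 3, at 25.2, 17.6 and 37.1 TPM against 0.770 to 5.42, 1.40 to 4.77 and 2.91 to 20.4 TPM in the other 3. Airway and mesothelial genes were also high in replicate 3, and their part in these values was not tested.

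A few genes known from skin differentiation varied in the direction opposite to Krt13. Krt1, the suprabasal keratin of epidermis, stood at 97.3, 79.3, 0.686 and 197 TPM in replicates 1 to 4, and its partner Krt10 at 93.5, 84.1, 17.3 and 191 TPM. Flg, which encodes profilaggrin, stood at 27.6, 23.96, 2.78 and 38.1 TPM, and Ivl, the involucrin gene, at 10.9, 8.69, 4.36 and 13.7 TPM. With Flg2 and Krt75 these made 6 genes that were all lowest in replicate 3 and highest in replicate 4. They were grouped after their values were seen, so the shared order describes the group and supports nothing beyond it. The cornified envelope list as a whole did not share that order. It summed to 61536, 65850, 68201 and 51347 TPM, highest in replicate 3 and lowest in replicate 4. Of its 37 genes with a mean of 1 CPM or more, 24 had the order of Krt13 on the CPM scale and 3 the opposite order. Hrnr, a filaggrin-like gene of the same cluster as Flg, did not follow them, at 107, 108, 104 and 94.9 TPM.

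**Figure D2:**
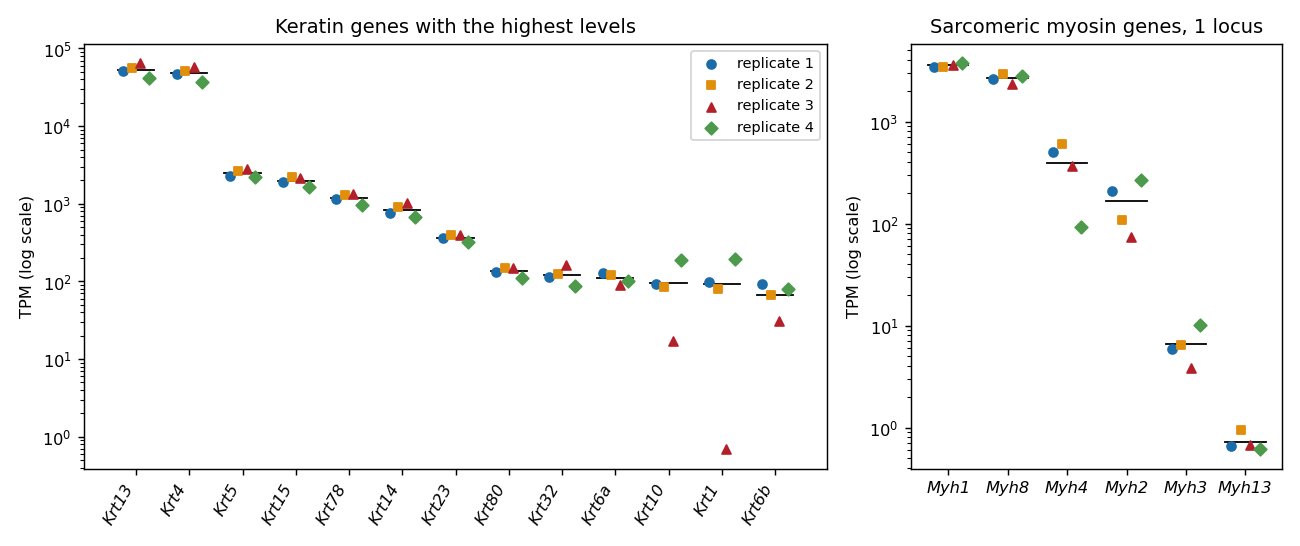
TPM on a log axis of the 13 keratin genes with the highest mean (left) and of the 6 sarcomeric myosin heavy chain genes of 1 locus (right), with 4 libraries as symbols and the mean as a bar. Krt1 and Krt10 fall far below the other libraries in replicate 3, and Myh4 in replicate 4.

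The cornified envelope, the cross-linked protein shell of dead surface cells, was the second largest epithelial source. Its 40 listed genes summed to 61733 ± 7454 TPM (SD, n = 4), and 36 of them reached 1 CPM in all 4 libraries. Many lie in the epidermal differentiation complex of chromosome 3 (90511034 to 93564643), where 75 protein-coding genes, 0.344% of all, took 5.74% ± 0.64 of the TPM (SD, n = 4), and 36 of the 75 exceeded 100 TPM. Lor alone stood at 21543, 23605, 21201 and 19029 TPM, above Acta1 on average. Among the small proline-rich cross-bridge genes, Sprr3 held 81.7% of the family sum at 5200, 5380, 5889 and 4007 TPM. Next came Sprr1a at 870 ± 233 TPM and Sprr1b at 189 ± 63.6 TPM (SD, n = 4 each), and the Sprr2 genes lay at 25.3 TPM or lower. Sprr2a1 and Sprr2a2 share 89.6% and 89.0% of their 150-base stretches with other copies, so their levels are uncertain.

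The late cornified envelope family was broadly present, with 20 of 21 genes at 1 CPM or more in each library and 19 above 100 TPM. Its Lce3 members led, Lce3a at 2457 ± 597, Lce3f at 1976 ± 369 and Lce3b at 1534 ± 374 TPM (SD, n = 4 each). Lce3c, Lce3e and Lce3f share 15.1%, 29.5% and 36.8% of their 150-base stretches with a neighbour, so their split is uncertain. Other envelope genes with high levels were Asprv1 (7199 ± 948 TPM), Crct1 (4217 ± 578 TPM), Rptn, the repetin gene (4102 ± 544 TPM), Cnfn, the cornifelin gene (3422 ± 475 TPM), and Tgm3, a cross-linking transglutaminase (1822 ± 243 TPM; SD, n = 4 each).

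Around the keratins, the wider suprabasal list of 30 genes summed to 130649 ± 20252 TPM (SD, n = 4). It held the secreted proteins Krtdap (7374 ± 381 TPM) and Dmkn (3633 ± 221 TPM), the galectin Lgals7 (3001 ± 115 TPM) and Perp, a protein of desmosomes (2498 ± 252 TPM; SD, n = 4 each). The 18 basal genes summed to 6479 ± 565 TPM (SD, n = 4), so the suprabasal list exceeded the basal list by 20.6, 19.9, 21.9 and 17.9 times in replicates 1 to 4. Of basal adhesion genes, Itgb1 stood at 274 ± 38.7 TPM, the hemidesmosome genes Col17a1 at 169 ± 12.1 and Itgb4 at 65.7 ± 1.65 TPM (SD, n = 4 each). The 25 cell cycle genes, all detected, summed to 305 ± 27.7 TPM (SD, n = 4). Mki67, a marker of dividing cells, stood at 11.2, 17.0, 12.1 and 13.5 TPM.

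Regulators of squamous fate were present at moderate levels, 26 of 28 at 1 CPM or more in each library. Hopx, a homeodomain protein without DNA binding, led at 839 ± 114 TPM, followed by Klf4, a differentiation factor, at 456 ± 34.03 TPM, Pitx1 at 346 ± 26.01 TPM and Nfe2l2, the NRF2 stress factor, at 246 ± 18.7 TPM. Grhl3 stood at 242 ± 12.3, Zfp750 at 119 ± 8.22, Pax9 at 103 ± 10.9, Sox2 at 98.3 ± 4.70, Klf5 at 62.7 ± 3.02 and Trp63, the basal cell regulator p63, at 43.8 ± 3.69 TPM (SD, n = 4 each). On the CPM scale the median CV was 11.99% over the 26 genes with a mean of 1 CPM or more, against 22.5% for Krt13. Trp63 had 7.43%, Pax9 15.02% and Hopx 18.4%. Gata3, active in skin and thymus, had 89 counts over the 4 libraries.

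Defence genes included some of the highest transcripts. Slpi, a leukocyte protease inhibitor, stood at 6930, 7198, 7341 and 6118 TPM, 56.3% of the sum of its 27-gene list. Defb4, a beta-defensin, stood at 2759, 2947, 3251 and 2273 TPM, and Il1f6, the gene of interleukin 36 alpha, at 288, 334, 374 and 232 TPM. All 3 were highest in replicate 3 and lowest in replicate 4, as were Krt13 and Krt4. Il33 stood at 124, 126, 158 and 109 TPM, and Il18 at 200 ± 20.8 TPM (SD, n = 4). Tslp, another epithelial alarmin, reached 1.85 ± 0.60 TPM (SD, n = 4). Of barrier lipid genes, Fabp5, a fatty acid carrier of keratinocytes, led at 1279 ± 70.6 TPM and Alox12b, a lipoxygenase of the skin barrier, stood at 587 ± 62.4 TPM (SD, n = 4 each).

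In the striated muscle coat, fast fibre transcripts exceeded slow ones. The 28 sarcomere genes summed to 35336, 34992, 31031 and 37067 TPM in replicates 1 to 4, and Acta1 made up 59.8% of this. The 17 fast fibre genes summed to 34114 ± 1201 TPM and the 11 slow fibre genes to 5992 ± 706 TPM (SD, n = 4), a ratio of 5.82, 6.01, 6.19 and 4.94. The fast sum had a CV of 3.52%, the smallest of the muscle lists. It was led by Tnnt3, fast troponin T, at 5834 ± 304 TPM, Ckm at 3994 ± 280 TPM, Mylpf at 3737 ± 154 TPM and Myh1 at 3555 ± 140 TPM (SD, n = 4 each).

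On the slow list the highest members, Mb, the myoglobin gene (3685 ± 427 TPM), and Myl3, a slow myosin light chain (1757 ± 204 TPM), held most of the sum (SD, n = 4 each). Defining slow genes were low. Myh7, the slow and cardiac myosin, stood at 2.25, 1.73, 13.4 and 1.82 TPM, and Myl2, its regulatory light chain, had 1 count in replicate 2, 0 in replicates 1 and 4, and 12.6 TPM in replicate 3. Replicate 3 is the library with heart transcripts, and the part of those in these values was not tested. Tnnt1, slow troponin T, stood at 89.4, 49.0, 24.6 and 133 TPM, lowest in replicate 3, and Tnni1, slow troponin I, at 9.08, 7.29, 8.22 and 18.6 TPM.

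The myosin heavy chain genes of chromosome 11, which set the speed of a fibre, took 0.678% ± 0.029 of the TPM as a locus (SD, n = 4), yet its members moved apart. Myh1, fast type 2X, stood at 3420, 3463, 3614 and 3724 TPM. Myh8, known as the perinatal myosin, came next at 2596, 2902, 2335 and 2809 TPM. The order of this pair depends on the length used, since Myh8 reached 4141 and Myh1 3020 TPM when counts were divided by the length of the longest transcript. On the CPM scale their CVs were 4.82% and 7.74%.

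Minor myosins were not as steady. Myh4, fast type 2B, stood at 498, 596, 369 and 93.2 TPM, lowest in replicate 4. Myh2, fast type 2A, stood at 207, 108, 74.6 and 269 TPM, highest in replicate 4. The ratio of Myh1 to Myh4 was thus 6.86, 5.81, 9.80 and 40.0. Pvalb, a calcium buffer of the fastest fibres, stood at 276, 243, 251 and 121 TPM and was, as Myh4, lowest in replicate 4. Embryonic Myh3 reached 6.61 ± 2.66 TPM and extraocular Myh13 0.725 ± 0.156 TPM (SD, n = 4 each).

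Genes of excitation and calcium release were all detected, 16 of 16. Sln, the sarcolipin that slows the calcium pump, led at 580, 750, 601 and 668 TPM. The release channel Ryr1 stood at 137 ± 26.6 TPM and its voltage sensor Cacna1s at 76.9 ± 5.85 TPM (SD, n = 4 each). All 13 neuromuscular junction genes were also detected, with a sum of 208 ± 17.4 TPM (SD, n = 4). The acetylcholine receptor subunits Chrnb1 and Chrna1 stood at 45.8 ± 1.90 and 19.2 ± 3.72 TPM. The adult subunit Chrne, at 3.25 ± 0.93 TPM, exceeded the fetal Chrng, at 0.796 ± 0.116 TPM, in each library, by 2.73 to 6.36 times (SD, n = 4 each).

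Among myogenic regulators, Tbx1 (67.8 ± 9.93 TPM) and Isl1 (22.7 ± 1.51 TPM), which act in muscle of the head and neck, were detected in each library, while Pax3, a regulator of trunk and limb progenitors, had 6 counts over the 4 libraries (SD, n = 4 each). Tbx1 and Isl1 are also used by other tissues. Myf6, a factor of mature fibres, led the list at 86.9 ± 6.75 TPM, and the differentiation factors Myog (17.95 ± 2.64 TPM) and Myod1 (12.0 ± 2.25 TPM) were lower. The satellite cell gene Pax7 stood at 1.76, 1.80, 1.51 and 1.79 TPM (SD, n = 4 where an error is given).

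Smooth muscle varied more than striated muscle. Myh11, the smooth muscle myosin, stood at 532, 334, 135 and 718 TPM in replicates 1 to 4, and Actg2, the enteric actin, at 530, 335, 167 and 774 TPM. Acta2 stood at 1180, 796, 411 and 1549 TPM. Lowest in replicate 3 were all 12 contractile genes of a set grouped after their values were seen, and 11 of these had their highest value in replicate 4. The ratio of the sarcomere sum to the smooth muscle sum was 5.03, 6.24, 8.06 and 4.15. Without replicate 3 the smooth muscle list averaged 7192 TPM against 6357 with it. Des and Hspb6 on this list are also striated muscle genes and varied less, with a CV of 10.3% and 9.03% (CPM).

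Among stromal lists the fibroblast and matrix genes led, with 36 of 36 detected and a sum of 8439, 7249, 7022 and 10402 TPM. Gsn, an actin-severing protein expressed widely, made up 36.0% of it at 2981 ± 519 TPM. Dpt stood at 577 ± 80.6, Sparc at 557 ± 116 and Col3a1 at 505 ± 71.4 TPM (SD, n = 4 each). The 13 basement membrane genes summed to 747 ± 179 TPM, led by Lamb2 (114 ± 22.3 TPM), and the 17 blood endothelial genes to 502 ± 84.7 TPM, led by the water channel Aqp1 (182 ± 10.5 TPM). The 7 lymphatic genes summed to 131 ± 15.8 TPM with Lyve1 at 64.6 ± 9.38 TPM (SD, n = 4 each).

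Fat and serosal genes depended on the library. Adipoq, the adiponectin gene of fat cells, stood at 323, 124, 42.5 and 386 TPM, and Cfd, adipsin, at 2063, 760, 324 and 2072 TPM. Replicates 1 and 4 were high for both and replicate 3 lowest. The 12 adipocyte genes summed to 3880 ± 2034 TPM (SD, n = 4), a range of 3.42 times. Car3 made up 39.2% of this sum and varied less than Adipoq, with a CV of 26.6% against 71.3% (CPM). Ucp1, the marker of brown fat, was low in all, at 10.1, 1.84, 8.33 and 4.68 TPM. The mesothelial list of 6 genes summed to 36.2, 11.3, 132 and 116 TPM, so that here replicates 3 and 4 were high. Upk3b, which marks mesothelium, stood at 12.9, 3.99, 39.4 and 44.8 TPM.

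Nerve genes had the lowest sum of the 5 layers. Of 30 enteric neuron genes 14 reached 1 CPM in all 4 libraries, with a list sum of 176, 180, 144 and 218 TPM. Nos1, the nitric oxide synthase of inhibitory neurons, made up 32.5% at 60.6, 66.3, 44.3 and 61.8 TPM, but skeletal muscle also expresses this gene. Penk, the enkephalin precursor, stood at 35.7 ± 9.59 TPM and the neuropeptide genes Npy at 9.75 ± 4.16 and Vip at 6.15 ± 2.92 TPM (SD, n = 4 each). Chat, which makes acetylcholine, had 6 counts in all.

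Of 18 glial and Schwann cell genes 14 reached 1 CPM in all 4 libraries. The list summed to 290, 254, 376 and 359 TPM, led by Pmp22 (126 ± 19.2 TPM), which other cells express too. The myelin gene Mbp stood at 22.5, 23.4, 34.4 and 26.2 TPM, highest in replicate 3. Sox10, the glial regulator, stood at 8.06 ± 1.33 and S100b at 8.83 ± 2.23 TPM. Of markers of interstitial cells of Cajal, the pacemaker cells, Ano1 stood at 20.2 ± 3.72 and Kit at 3.12 ± 1.52 TPM (SD, n = 4 each).

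On average the dendritic list (743 ± 229 TPM) and the macrophage list (635 ± 152 TPM) had the highest sums among immune lists, followed by the B and plasma cell list (588 ± 382 TPM; SD, n = 4 each), which was the highest of them in replicate 3. Of macrophage genes, 20 of 20 had a mean of 1 CPM or more, and they summed to 550, 468, 722 and 799 TPM, with the complement genes C1qa (143 ± 41.5 TPM) and C1qb (121 ± 30.9 TPM) in the lead. The MHC class II chaperone Cd74 stood at 307, 295, 356 and 571 TPM, and H2-Eb1 at 101, 91.9, 114 and 184 TPM, both highest in replicate 4. Cd74 made up 51.4% of the dendritic list, whose median gene stood at 2.75 TPM, and Sdc1 39.6% of the B and plasma cell list. Langerin, Cd207, of Langerhans cells, stood at 1.35 ± 0.29 TPM (SD, n = 4). Csf1r, the macrophage growth factor receptor, stood at 35.2 ± 10.2 TPM (SD, n = 4).

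Lymphocyte and granulocyte genes were sparse. Of 27 T cell and innate lymphoid genes 5 reached 1 CPM in all libraries. Cd3e, of the T cell receptor complex, had 65 counts over the 4 libraries, Cd8a 43 and Trdc 92. The list was led by Thy1 (30.1 ± 1.62 TPM) and Rora (25.1 ± 1.42 TPM; SD, n = 4 each), which other cells also express. Defining eosinophil genes were near 0, with 3 counts of Epx, 6 of Prg2 and 14 of Siglecf over all libraries, so that the sum of their list (59.1 ± 23.7 TPM; SD, n = 4; 49.1 TPM without replicate 3) came mostly from Rnase2b and Alox15. The neutrophil gene Ly6g had 1 count. S100a9, on average 65.3% of the neutrophil list at 151, 118, 66.9 and 143 TPM, is made by keratinocytes as well. The list summed to 182, 142, 224 and 185 TPM in replicates 1 to 4. It was thus highest in replicate 3, where S100a9 was lowest and other members held most of the sum.

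B cell and mast cell genes were high in some libraries. The B and plasma cell list summed to 284, 277, 1069 and 722 TPM, and averaged 428 TPM without replicate 3. Sdc1, its highest gene on average, was not among 8 B cell genes grouped after their values were seen. Those 8 summed to 48.3, 36.1, 801 and 472 TPM. Igkc, the kappa light chain, stood at 21.0, 17.7, 463 and 251 TPM, and Ighm, the heavy chain of IgM, at 25.1, 16.3, 278 and 168 TPM. Cd79a, of the B cell receptor, stood at 0.337, 0.431, 12.1 and 13.7 TPM, so that replicates 3 and 4 were high in all 3 genes. The mast cell protease Mcpt4 stood at 21.3, 8.73, 9.25 and 49.4 TPM and Cpa3 at 13.7, 4.14, 5.45 and 25.2 TPM, highest in replicate 4. The beta-globin Hbb-bs stood at 271, 165, 433 and 805 TPM, and shares 58.7% of its 150-base stretches with Hbb-bt. Globins, a measure of blood in the sample, were thus highest in replicate 4 too, and the part of blood in the immune values was not tested.

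**Figure D3:**
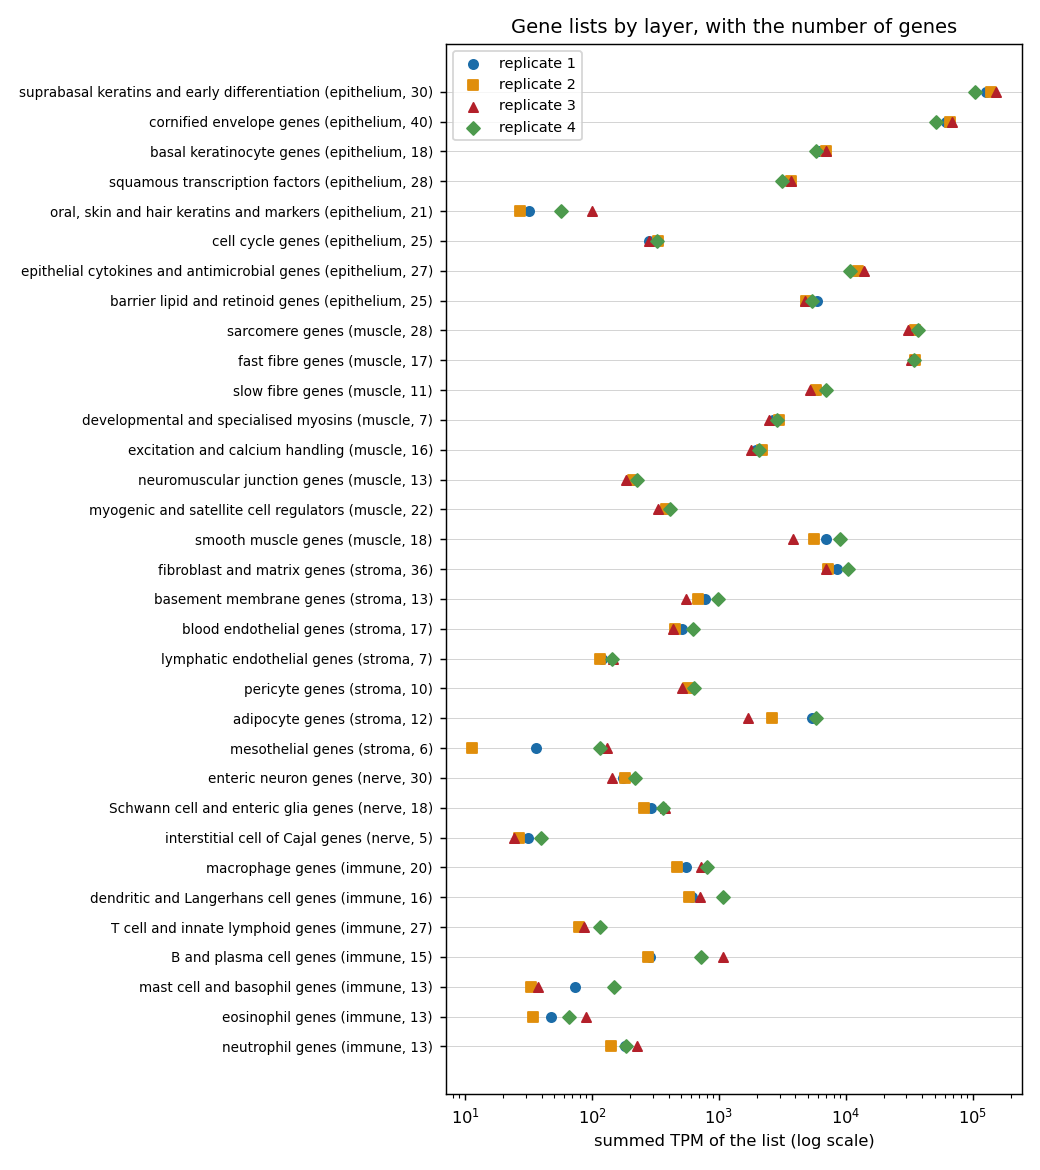
Summed TPM on a log axis of each gene list of the 5 layers in the 4 libraries (coloured symbols), with the layer and the number of genes in brackets. Suprabasal and envelope lists lie highest, followed by sarcomere and fast fibre genes, and the ratio of the highest to the lowest library is largest for mesothelial genes (11.6), mast cell genes (4.56), B cell genes (3.85) and the oral, skin and hair keratins (3.64).

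Genes of organs beside the esophagus marked what else the libraries held. In replicate 3, the airway genes Bpifa1 and Scgb3a2 stood at 1132 and 204 TPM against 1.38 to 1.75 and 0.571 to 1.26 TPM in the others, and the surfactant gene Sftpc at 32.2 TPM against 0 to 0.238 TPM. The atrial genes Nppa and Myl7 stood there at 74.6 and 136 TPM against 0 to 1.02 and 24.4 to 35.6 TPM. The airway list averaged 1919 ± 2000 TPM over 4 libraries (SD) and 919 TPM without replicate 3. Most of the remainder was Cyp2f2, a cytochrome P450 of club cells, at 724, 757, 1067 and 569 TPM, and Chil4, a chitinase-like gene, at 189, 190, 156 and 208 TPM. With Scgb1a1, a secretoglobin of club cells, these were the 3 of 19 airway genes at 1 CPM or more in every library.

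Scgb1a1 stood at 35.9, 33.8, 2028 and 35.9 TPM, and its ratio to Bpifa1 was 20.5, 24.4, 1.79 and 20.6. In the 3 libraries without the airway signal both genes were low and in a ratio unlike that in replicate 3. In replicate 1 the liver genes Apoa1 and Ttr stood at 54.1 and 28.9 TPM against 0.761 to 3.02 and 0.227 to 3.04 TPM in the others. Of 13 pancreas and salivary genes 9 had 0 counts in all 4 libraries. So had Gkn2 and Gif of the stomach, Pth of the parathyroid, Acan and Matn1 of cartilage, Rag2 of thymocytes, the basophil gene Mcpt8 and Ear6 of the eosinophil list. A count of 0 over the 4 libraries allows up to 0.0323 CPM, for counting error only.

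Position along the body axis was marked by Hox genes, the homeobox factors that record position. Of 39 Hox genes 14 reached 1 CPM in all libraries and 9 had 0 counts, Hoxa10, Hoxa11, Hoxa13, Hoxb13, Hoxc11, Hoxc12, Hoxd11, Hoxd12 and Hoxd13. Hoxc4 led at 34.3 ± 2.89 TPM, followed by Hoxd8 (25.5 ± 2.05 TPM) and Hoxc5 (21.96 ± 3.91 TPM; SD, n = 4 each). Hoxc8 stood at 13.1, 9.94, 1.89 and 24.8 TPM, Hoxc6 at 9.95, 12.6, 5.08 and 18.3 TPM, and Barx1, a foregut homeobox gene of stomach mesenchyme, at 14.3, 5.75, 1.58 and 16.0 TPM. On the TPM scale all 3 were lowest in replicate 3 and highest in replicate 4. Hoxc4 kept a CV of 3.95% on the CPM scale across the same libraries. The hindgut and pancreas regulators Cdx1, Cdx2 and Pdx1 had 0 counts, and Nkx2-1 of lung and thyroid had counts in replicate 3 only (2.30 TPM).

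Genes that respond to handling or the time of day were close between libraries as sums, but not gene by gene. The 20 immediate early genes summed to 1187, 1124, 1202 and 1159 TPM, a CV of 2.96%, while the median CV of the single genes was 14.7% (CPM). That median was 10.5% for heat shock genes and 8.42% for clock genes. The clock genes Nr1d1 and Dbp stood at 262 ± 40.6 and 102 ± 13.9 TPM (SD, n = 4 each), against 7.68 ± 0.58 TPM for Arntl, whose targets include both. The 17 hypoxia and glycolysis genes had the smallest CV of the sum among all 50 lists, with 9248 ± 186 TPM (SD, n = 4). The heat shock pair Hspa1a and Hspa1b spread more, at 151, 70.5, 84.8 and 129 TPM and at 310, 170, 205 and 308 TPM, but 39.7% and 40.5% of their 150-base stretches also occur in another gene, so the split between them is uncertain. The Y-linked gene Ddx3y was present in all 4 libraries at 36.5 to 45.5 TPM.

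Spread between libraries was wider than counting noise for most genes. Over the 9964 genes with a mean of at least 10 CPM, the median CV was 7.25%, against 3.30% from counting alone. A CV over 10% was found in 3111 genes (31.2%), over 25% in 476 (4.78%) and over 50% in 98 (0.984%). Without replicate 3, 37 genes exceeded 50%. The 5 genes with the smallest CV at 100 CPM or more were Tprgl (0.469%), Tab2 (0.604%), Ddx5, an RNA helicase (0.614%), Cdc42bpb (0.700%) and Luc7l3 (0.704%). At the other end were Bpifa1 (199%), Sec14l3 (198%) and Myh6, the atrial myosin (198%), which were high in replicate 3 alone.

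**Figure D4:**
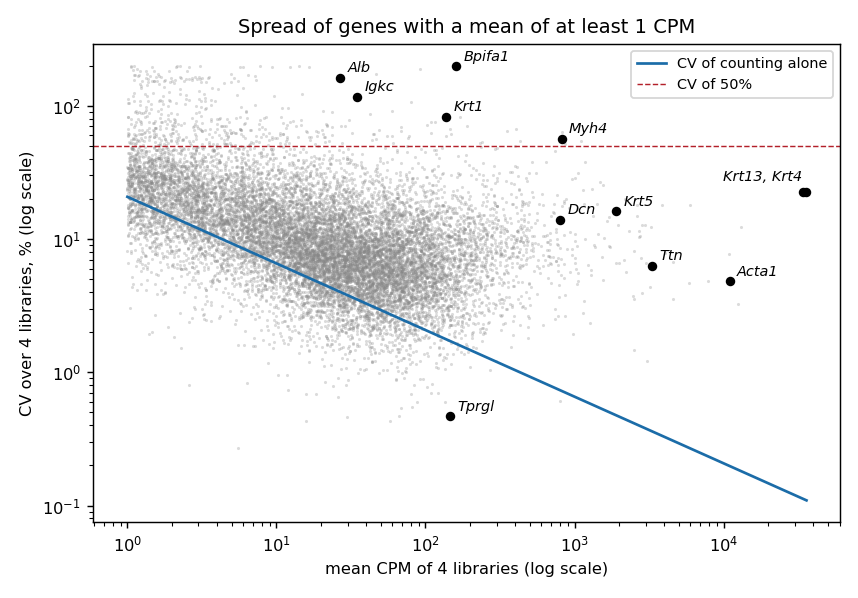
CV over the 4 libraries against mean CPM, both on log axes, for each gene with a mean of at least 1 CPM (grey points), with the CV that counting alone gives (blue line) and a CV of 50% (dashed). Krt13 and Krt4 lie far above the counting line, and Tprgl below it.

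Genes with a wide spread often shared the order of their libraries. Of the 476 genes with a CV over 25%, 184 (38.7%) had the order replicate 3, 2, 1, 4 from low to high, and 60 (12.6%) the reverse. Over all 9964 genes the same orders took 11.3% and 15.4%. Krt13 and Krt4 followed the second order, as did the sum of the cornified envelope list. Of the 18 smooth muscle list genes with a mean of 1 CPM or more, 15 followed the first order. The 6 skin-type genes did so too, but were picked for it. Relative to each gene's mean CPM, the median level of the smooth muscle set was 1.21, 0.811, 0.438 and 1.59 in replicates 1 to 4, that of the 6 skin-type genes 1.18, 0.967, 0.129 and 1.60, and that of Barx1 with 4 Hox genes 1.17, 0.866, 0.181 and 1.62.

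Other sets had other orders. Adipocyte genes were high in replicates 1 and 4 (1.55 and 1.51), B cell genes in replicates 3 and 4 (2.06 and 1.82) and liver genes in replicate 1 alone (3.34). Because the sets were formed on these values, they describe the libraries and are not tests. By their labels the 4 libraries shared group, sex, strain and age. Whether the stretch sampled, neighbouring tissue or the animals differ along these orders was not tested.

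**Figure D5:**
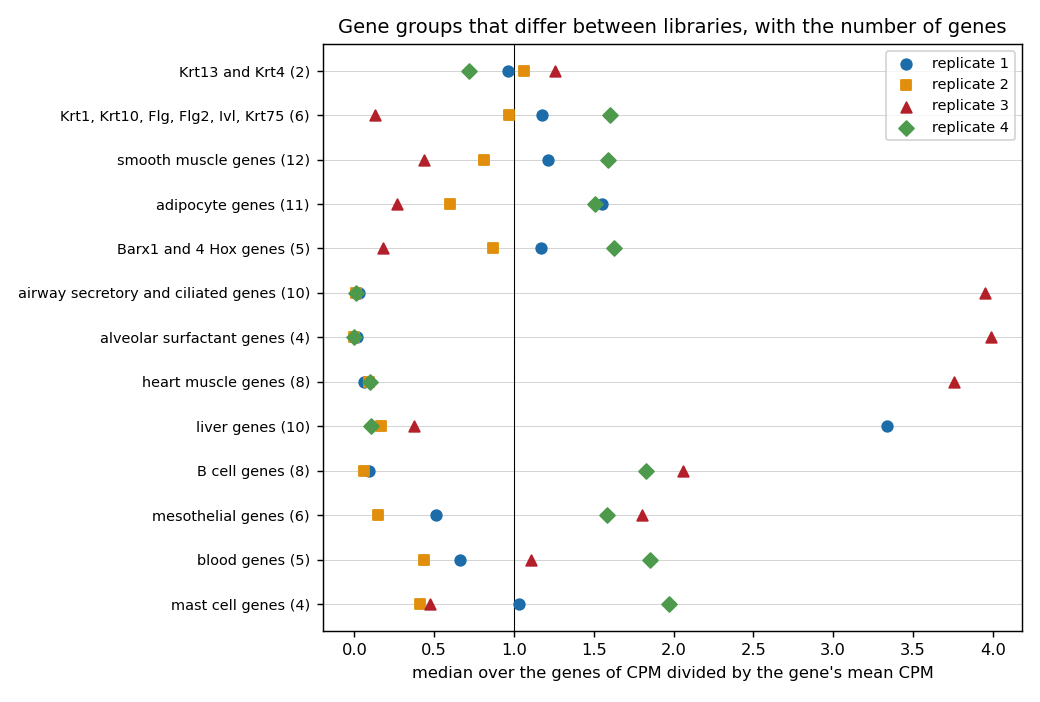
Median over the genes of a set of the CPM divided by the gene's mean CPM, in each library (coloured symbols), for 13 sets formed after their values were seen, with the number of genes in brackets. Airway, surfactant and heart sets lie between 3.76 and 3.99 in replicate 3, liver genes at 3.34 in replicate 1, and replicates 3 and 4 lie on opposite sides for smooth muscle and skin-type genes.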

How the data were processed

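The authors deposited raw counts per gene, whole numbers for 49315 Ensembl identifiers, and 4 of the 8 columns were used, assigned to samples by the column letter in each label. The submitters' processing notes list Trimmomatic 0.36, STAR 2.5.2b, featureCounts, Subread 1.5.2 and build GRCm38, giving no role to any. Annotation, strand setting and treatment of reads with several matches: not given in the sources used here. Reads of genes that overlap, antisense ones included, may therefore be mixed. Symbols, coordinates and exon lengths came from GENCODE M21, which matched 49056 identifiers. The other 259 held at most 0.0171% of a library's counts.

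CPM used TMM factors (0.978 to 1.04) of edgeR 4.0.16 in R 4.3.3, over the 4 libraries. TPM divided counts by the union exon length and was scaled to a common total per library. Very short gene models, such as Gm23935 with 57 bases, get a TPM that their length inflates. CV is SD over mean of CPM. Counting alone limits precision: 3 counts equal 0.127 to 0.132 CPM in a library. Reads carried no stated molecular identifiers, so several may stem from 1 molecule and floors cover counting error only. The spread calculation was tested on simulated counts. Sharing between genes was measured over 150-base stretches of each named gene's longest transcript.

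The choice of libraries, of 50 gene lists and of which genes to name was made with earlier results of these data known. Named were 6 markers, the 20 nuclear genes with the highest TPM, the 4 highest members of each list and those at 0 where a list is described, the 20 largest CVs from a mean of 10 CPM, the 5 smallest from 100 CPM, and members of families a list is about. Other genes, and the 13 sets of genes that vary between libraries, were chosen after their values were seen. A gene that this rule took is not reported here. Alternatives were other scalings (library size, DESeq2 1.42.0 size factors, no mitochondrial genes), detection thresholds, the longest transcript as length, and leaving out libraries. Leaving genes under 200 bases out of the TPM total was added after seeing the data.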

Additional observations from a re-analysis of the deposited data

Results flagged for a closer look

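A library was singled out where, among the 4 libraries, the highest or lowest value was farther from its nearest neighbour, as a share of the whole range, than the 95% critical value of Dixon's test. This was looked for in 275 named genes that averaged 1 CPM or more and in the sums of 50 lists, and found for 36 genes and 2 lists. Chance alone gives about 1 in 20, and 840 of all 14895 genes that averaged 1 CPM or more (5.64%) met it. Many of the named genes were chosen for a wide spread, so their share is set by that choice, and the share of lists was no higher than chance gives. Replicate 3 was the library apart in 23 of these, replicates 1 and 4 in 6 each and replicate 2 in 3.

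Replicate 3 was highest for airway and lung genes. Its CPM was 352 for Scgb1a1, 638 for Bpifa1, 48.7 for Bpifb1, 65.3 for Scgb3a2, 56.4 for Sec14l3 and 12.1 for Sftpc. Ltf at 168, Cyp2a5 at 140 and the simple-epithelium keratin Krt8 at 17.96 CPM were highest there too, and their source was not tested. In the other 3 libraries Scgb1a1 lay between 5.50 and 5.93, Ltf between 5.43 and 6.69, and Cyp2a5 between 22.9 and 41.4 CPM. The airway list summed to 4917 TPM in replicate 3 against 816 to 986 TPM elsewhere. It was also highest for heart genes, with 146 CPM of Myh6, 42.2 of Myh7, 44.8 of Myl4, 29.2 of Myl7, 23.5 of Nppa and 8.96 of Myl2. Myl4 lay between 13.2 and 15.7 CPM in the others. Further genes highest there were Chad of cartilage (5.44 CPM), the myelin gene Mbp (106 CPM) and the lymphatic gene Mmrn1 (42.3 CPM). It was lowest for Tbx1 (68.3 CPM), Chil4 (160 CPM) and Comp (1.15 CPM), and for the hypoxia and glycolysis list, whose 8969 TPM lay only slightly under the 9334 to 9345 TPM of the others.

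Replicate 1 was highest for the liver genes Alb (91.7 CPM), Apoa1 (23.2 CPM) and Ttr (11.9 CPM). It was also highest for the interferon-induced Bst2 (13.7 CPM) and the short gene model Gm23935 (240 CPM), and lowest for Myf6 (34.9 CPM). Replicate 2 was highest for Myog (11.4 CPM) and Isl1 (33.5 CPM) and lowest for Ifit3 (8.12 CPM). Replicate 4 was highest for Hspa8 (1544 CPM) and Uchl1 (7.71 CPM), and lowest for Sox2 (60.8 CPM), Klf5 (98.3 CPM), Hrnr (342 CPM) and Cdc42bpb (120 CPM). The last of these belongs to the 5 genes with the smallest CV, so the distance there is small in size.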

How the results depend on the processing

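Under the alternatives that kept all libraries, most summed levels and shares moved by less than 1 SD between libraries. The counts of genes and the median CV have no such SD, so their values are given as they were. The number of genes detected lay between 14075 and 15282 under every scaling and threshold, and between 14155 and 14248 when 1 library was left out. The number of genes with a CV over 50%, 98 as reported, was 472 when genes from a mean of 1 CPM entered, which adds low genes with more counting noise, and 37 to 121 when 1 library was left out. The lowest of these is without replicate 3, whereas it was 103 without replicates 1 and 3 together, where a CV comes from 2 libraries. The median CV was 5.75% to 7.78% when 1 library was left out. The share of TPM in the 10 and 100 highest genes was 18.5% and 39.4% with the length of the longest transcript, and 19.99% and 39.6% without mitochondrial genes, where fewer genes enter the total. That choice also put the muscle sum at 91884 TPM. With the length of the longest transcript the ratio of the epithelial to the muscle sum was 2.25, and 2.39 to 2.82 when 1 library was left out. Of 50 list sums, 11 moved by more than 1 SD with that length. Of 323 gene levels, 0 moved by more than 1 SD under library size only. Among 373 gene levels and list sums, 8 did without replicates 1 and 3 together, and at most 5 when 1 library was left out. A mean over so few libraries cannot shift by more than their SD when 1 or 2 are dropped, unless the scaling changes too. These low counts were therefore set by the rule and cannot show whether levels depend on single libraries. A single group gave no test, and no paired analysis was possible because no comparison between groups was made. Genes near the floor of 3 counts cannot be ranked at this depth.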
